A study of Mus musculus with 24 samples.

Results

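The IL-1 and IL-6 family signals were taken as 10 genes chosen by name from the table of 18892 gene symbols: Il1a, Il1b, Il1rn, Il1r1, Il1rap, Il18, Il33, Il6, Il6st and Tnf. Tnf encodes a cytokine of another family that acts with interleukin-1 in inflammation. All 10 were among the 13039 genes that passed the filter on low values (4 or more libraries reaching an FPKM of 1), and FPKM is the number of fragments scaled by gene length and by the depth of the library. Expression was measured by RNA sequencing of skin from 24 mice, 1 library a mouse. Control mice were injected daily with saline and had solvent put on the skin. Model mice were injected daily with dihydrotestosterone (DHT, an androgen) and had solvent put on the skin. Treatment mice were injected with DHT and had a topical extract of Hanlianxiang (HLX, a traditional Chinese medicine formula) in place of solvent. Each of the 3 treatments had 4 mice at day 10 and 4 other mice at day 15, and strain, sex and age are not given in the sources used here. Model against control asks what DHT injection changed, and treatment against model asks what the extract changed in DHT-injected mice.

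Interleukin-1 alpha and beta (Il1a, Il1b) bind the receptor Il1r1, which signals together with the accessory chain Il1rap, and the antagonist encoded by Il1rn occupies Il1r1 without recruiting that chain. Receptor assembly activates NF-kB through the adaptor MyD88, and Il6 and Tnf are among the genes that this pathway induces. Interleukin-6 signals through the shared receptor chain gp130, encoded by Il6st, to the transcription factor STAT3. In skin, keratinocytes, macrophages, neutrophils, mast cells, fibroblasts and endothelial cells can all make or answer some of these signals.

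Promoters of 4 of the genes are shown. Il1b, Il6 and Tnf were taken because they differed widely between libraries of 1 group. Il6st was taken for its high level, which varied less than in those genes, by up to 2.07 times within a group (treatment, day 15). Il33 also differed widely, by 15.1 times within model libraries of day 15, and its promoters are not shown. Each sequence comes from the RefSeq window before the gene's start, on the gene's own strand, from build GRCm38.p6, which is older than the build of the expression table (GRCm39). They lie at chr2:129371165-129371389 (minus strand, Il1b), chr5:30012864-30013113 (plus strand, Il6), chr17:35202008-35202257 (minus strand, Tnf) and chr13:112463820-112464069 (plus strand, Il6st). Those of Il6, Tnf and Il6st end at the base before the start. The Il1b sequence was shortened to 225 bases and ends 26 bases before the start, so that it holds no base transcribed from another annotated start of the gene. Capitals mark matches to 4 motifs, which were chosen after the expression values were seen and searched on both strands, with no overlap between the marked matches.
Il1b: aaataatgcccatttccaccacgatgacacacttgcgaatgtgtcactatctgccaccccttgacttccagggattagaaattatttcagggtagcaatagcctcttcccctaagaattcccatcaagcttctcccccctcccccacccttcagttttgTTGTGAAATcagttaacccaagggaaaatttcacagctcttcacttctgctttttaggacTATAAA
Il6: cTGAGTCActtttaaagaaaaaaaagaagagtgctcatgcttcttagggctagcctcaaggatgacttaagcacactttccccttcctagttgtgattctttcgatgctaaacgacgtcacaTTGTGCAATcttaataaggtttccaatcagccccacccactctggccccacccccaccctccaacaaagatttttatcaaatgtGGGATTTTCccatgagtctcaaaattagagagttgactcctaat
Tnf: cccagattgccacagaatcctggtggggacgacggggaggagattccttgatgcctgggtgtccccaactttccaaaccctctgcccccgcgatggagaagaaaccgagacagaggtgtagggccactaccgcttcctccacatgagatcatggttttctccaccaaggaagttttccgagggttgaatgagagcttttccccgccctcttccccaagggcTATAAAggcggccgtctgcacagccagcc
Il6st: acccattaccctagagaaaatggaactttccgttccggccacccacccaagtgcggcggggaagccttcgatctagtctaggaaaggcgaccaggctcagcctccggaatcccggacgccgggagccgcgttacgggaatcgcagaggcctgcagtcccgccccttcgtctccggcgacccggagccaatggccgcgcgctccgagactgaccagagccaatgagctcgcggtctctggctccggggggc

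The Il6 window held an NF-kB match starting 44 bases before the start, a C/EBP match at 128 and an AP-1 match at 249. The Il1b window held a C/EBP match at 91 bases and a TATA match at 31 bases before the start, and the Tnf window held a TATA match at 29 bases. None of the 4 motifs was found in the Il6st window, whose GC content was 66.0% against 44.0% in Il1b, 42.8% in Il6, 57.6% in Tnf and a median of 52.4% over all windows. Of 32851 promoter windows of 250 bases, 3.72% held the NF-kB letters, 10.2% the C/EBP letters, 6.75% the AP-1 letters and 12.4% the TATA letters. All 10 genes had at least 1 window in the RefSeq table, and some of the other 6 genes have several. There, 1 Il1rn window held an NF-kB match at 51 bases and a C/EBP match at 64 bases before its start, and another an AP-1 match at 141. Windows of Il1r1 held C/EBP matches at 155 and 236 bases, and the Il1a window an AP-1 match at 12 and a TATA match at 32. TATA matches stood at 175 bases for Il18 and at 203 and 29 bases in separate windows of Il33, and no window of Il1rap held a match. The letters searched were GGGNNTTTC for NF-kB and TTNNGNAAT for C/EBP. For AP-1 the search used TGANTCA. For the TATA box it used TATAAA. A match describes the letters and is not a measured binding site.

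Whole reads could be recovered from the table, with 37048896 to 41117262 reads per library. A set of kidney markers summed to between 17.2 and 28.7 FPKM in the 8 control and model libraries of day 10 and to at most 0.17 FPKM in the other 16 libraries, and the labels name no batch. Comparisons that cross this divide (treatment against either other group at day 10, and day 15 against day 10 in control and model, and the change of the treatment-model difference between days) cannot be told apart from it. Among those 8 libraries of day 10, all 3 tested kidney markers were also called lower in model than control skin, where the sums were 17.2 to 24.8 FPKM in model and 24.7 to 28.7 in control. Summed Y-linked transcripts were at 49.8% to 74.5% of the median over libraries in treatment replicate 3 of day 10 and treatment replicates 1, 2 and 4 of day 15, and at 87.5% or more in the other 20. Model replicate 3 of day 15 stood apart in most of the 10 genes, and calls among the 10 genes that rest on it are given with and without it. In whole skin, more cells of a type and more RNA per cell cannot be told apart.

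In model against control skin, all 10 genes had a fitted difference above 0 at day 10 and 9 of 10 at day 15. At day 15, Il1r1, Il1rap and Il6st rose, by between 0.43 and 0.55 on the log2(FPKM + 1) scale, and none of the other 7 genes was called. Across all tested genes, 4.23% were called higher and 6.56% lower at day 15 (limma, adjusted p under 0.05). At day 10 limma called 0 of the 10 genes and voom on the recovered reads also called 0, while Il1b, Il18, Il1rap and Il6st had an unadjusted p under 0.05. The background at day 10 was 6.79% of tested genes called higher and 7.04% lower. The median difference of the 10 genes was 0.50 at day 10 and 0.53 at day 15, against -0.02 and -0.03 over all tested genes.

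In treatment against model skin, Il1r1 and Il1rap were lower at day 15 (log2 differences of -0.55 and -0.53), and 0 of the 10 genes were called at day 10. At day 15, 9.32% of all tested genes were called lower and 10.3% higher, beside 2 of the 10 genes called lower and 0 higher. At day 10, 0.192% of tested genes were called in either direction, voom also called 0 of the 10, and 1 of the 10, Il33, had an unadjusted p under 0.05. The fitted difference was above 0 for 1 of 10 genes at day 15, Il6, and for 7 of 10 at day 10, with medians of -0.35 and 0.10 against -0.02 and -0.03 over all tested genes. Both comparisons of a day share the model libraries.

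**Figure D1:**
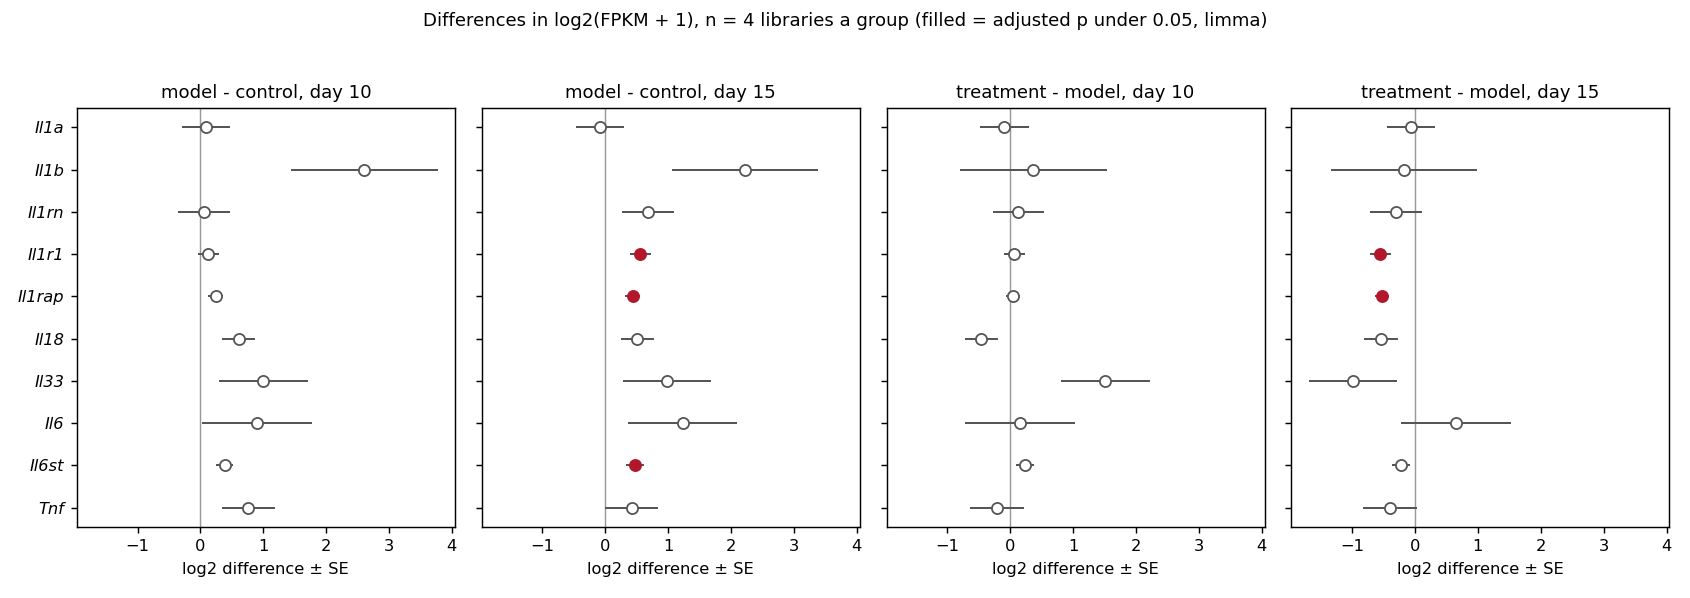
Differences in log2(FPKM + 1) (x axis, bars showing the limma standard error) of the 10 genes (y axis) for the model-control and treatment-model differences of both days, 4 libraries a group, with filled points for genes called at an adjusted p under 0.05. Il1r1, Il1rap and Il6st are filled to the right of 0 in model against control at day 15, Il1r1 and Il1rap to the left of 0 in treatment against model at day 15, and the cytokines have wide bars.

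Il1rap, the accessory chain without which Il1r1 does not signal, had the smallest adjusted p of the 10 genes in both comparisons of day 15. Control libraries of day 15 held 3.84, 3.58, 3.62 and 4.37 FPKM in replicates 1 to 4. Model libraries held 5.11, 5.38, 7.11 and 4.76 FPKM. Treatment libraries held 3.61, 3.71, 2.68 and 4.30 FPKM. Every model library was above every control and every treatment library, and control and treatment libraries overlapped. The mean went from 3.85 ± 0.363 FPKM in control to 5.59 ± 1.05 in model (SD, n = 4), a log2 difference of 0.43 (SE 0.12, limma adjusted p = 0.0246). It was 3.57 ± 0.671 FPKM in treatment, a log2 difference of -0.53 from model (SE 0.12, limma adjusted p = 0.00504).

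The lower Il1rap in treatment skin of day 15 was called without each single library in turn, with an adjusted p of at most 0.0187. It was not called when only the libraries of both groups set the spread (limma adjusted p = 0.151) or with array weights (log2 difference -0.28, limma adjusted p = 0.0539). The model-control difference was less steady. It lost its call without control replicate 2 (0.41, limma adjusted p = 0.0715) or 3 (0.41, 0.0779) of day 15, without model replicate 2 (0.44, 0.0521) or 3 (0.33, 0.0925), and with a spread from its own 8 libraries (0.061). At day 10 the means were 3.85 ± 0.362 FPKM in control, 4.76 ± 0.762 in model and 4.90 ± 0.322 in treatment (SD, n = 4), and treatment libraries (4.53 to 5.31 FPKM) lay above all control libraries (3.46 to 4.24 FPKM). The log2 difference at day 10 was 0.24 for model against control (SE 0.12, limma adjusted p = 0.163) and 0.28 for treatment against control (SE 0.12, limma adjusted p = 0.139), so neither was called.

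Il1r1, the signalling receptor for both interleukin-1 forms, held 16.2, 14.4, 14.4 and 16.7 FPKM in control libraries of day 15 and 19.1, 20.1, 38.4 and 18.9 FPKM in model libraries. Replicate 3 was the highest by far, and all 4 model libraries exceeded the controls. Treatment libraries held 11.4, 17.7, 14.0 and 19.7 FPKM and overlapped both other groups. Means were 15.4 ± 1.21 FPKM in control, 24.1 ± 9.55 in model and 15.7 ± 3.75 in treatment (SD, n = 4). The log2 difference was 0.55 for model against control (SE 0.17, limma adjusted p = 0.0423) and -0.55 for treatment against model (SE 0.17, limma adjusted p = 0.0276). Without model replicate 3 these became 0.32 (limma adjusted p = 0.131) and -0.31 (limma adjusted p = 0.0865), and neither was called. The model-control call was also lost without any of the 4 control libraries (0.52 to 0.59) or model replicate 2 (0.62) of day 15, at a limma adjusted p between 0.0533 and 0.113, without the filter on low values (0.0607) and with a spread from its own 8 libraries (0.137). It was lost at an adjusted p of at most 0.0509 without control replicate 1 or 4, model replicate 2 or treatment replicate 1 or 4 of day 10. The treatment-model call was also lost without treatment replicate 1 (-0.42, limma adjusted p = 0.119) or treatment replicate 3 (-0.51, limma adjusted p = 0.0547), and without the 4 libraries low in Y-linked transcripts (-0.68, limma adjusted p = 0.0507). A spread from its own 8 libraries (0.276) or array weights (-0.24, limma adjusted p = 0.208) also ended it. Levels at day 10 were closer together, with means of 13.2 ± 0.609 FPKM in control, 14.5 ± 1.49 in model and 15.2 ± 0.979 in treatment (SD, n = 4).

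Il6st, the gp130 chain shared by interleukin-6 and its relatives, had the highest median FPKM, a level per length, of the 10 genes. Control libraries of day 15 held 49.3, 42.0, 42.0 and 44.3 FPKM. Model libraries held 58.9, 60.4, 71.0 and 56.8 FPKM, all above the controls. Treatment libraries held 51.1, 71.1, 34.4 and 62.0 FPKM, and replicate 3 was below every control library. The model-control log2 difference at day 15 was 0.47 (SE 0.14, limma adjusted p = 0.0423), with means of 44.4 ± 3.43 and 61.8 ± 6.36 FPKM (SD, n = 4). It kept a value of at least 0.40 without any 1 library but lost the call without control replicate 2 (0.44, limma adjusted p = 0.0993), 3 (0.44, 0.113) or 4 (0.47, 0.0902) of day 15, and without model replicate 2 (0.47, 0.0777) or 3 (0.40, 0.127). It was also lost, at an adjusted p of at most 0.0508, without control replicate 1 or 4, model replicate 4 or treatment replicate 4 of day 10, and further without the filter (0.0604) and with median-of-ratios scaling (0.50, limma adjusted p = 0.0506).

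At day 10, Il6st stood at 46.7, 47.6, 42.1 and 44.2 FPKM in control, 54.9, 63.7, 60.2 and 58.0 FPKM in model, and 61.1, 76.6, 75.1 and 68.5 FPKM in treatment libraries. The controls were lowest without overlap with either other group, and model and treatment libraries overlapped. Treatment against control gave a log2 difference of 0.62 (SE 0.14, limma adjusted p = 0.0212), a comparison that crosses the kidney-marker divide. Model against control, where the kidney markers also differed, gave 0.38 (SE 0.14) and missed the threshold (limma adjusted p = 0.0758), which it passed without treatment replicate 2 (0.38, 0.0387) or 3 (0.38, 0.00962) of day 15. The treatment-control call was lost without control replicate 3 (0.59, limma adjusted p = 0.0675) or 4 (0.62, 0.0605) or treatment replicate 2 (0.58, 0.088) or 3 (0.59, 0.0857) of day 10. Without control replicate 1 it was 0.64 with a limma adjusted p of 0.0501.

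In treatment against control at day 10, Il6st was the only 1 of the 10 genes called, where 2.2% of all tested genes were called higher and 1.04% lower. At day 15, 0 of the 10 genes were called between treatment and control by limma or voom, 1 (Il6) had an unadjusted p under 0.05, and 0.314% of tested genes were called in either direction. Treatment-control comparisons share libraries with both other comparisons of their day. Changes in the effects between days were tested as well. Limma and voom called 0 of the 10 genes for the change of the model-control difference (0 with an unadjusted p under 0.05, 0.0% of tested genes called) and 0 for the change of the treatment-model difference (4 with an unadjusted p under 0.05, 0.0997% of tested genes called). The latter change crosses the kidney-marker divide, and 3 of 3 tested kidney markers were called for it. The 4 genes were Il1rap with a change of -0.57 (SE 0.16, limma adjusted p = 0.139), Il1r1 with -0.62 (SE 0.24, limma adjusted p = 0.239), Il33 with -2.50 (SE 0.995, limma adjusted p = 0.255) and Il6st with -0.46 (SE 0.20, limma adjusted p = 0.299). Without model replicate 3 of day 15 the change was -0.464 for Il1rap, -0.38 for Il1r1 and -1.781 for Il33.

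Il1b, whose product is released after cleavage of a precursor by caspase-1, was low in control skin of day 10, with 1.85, 3.17, 1.08 and 1.23 FPKM in replicates 1 to 4. Model libraries of day 10 held 3.84, 19.7, 71.6 and 9.47 FPKM, and treatment libraries 28.8, 19.9, 34.0 and 8.71 FPKM. Each model and each treatment library was above all 4 controls, and model and treatment overlapped. The model mean of 26.1 ± 31.0 FPKM was 14.3 times the control mean of 1.83 ± 0.951 (SD, n = 4), or 6.0 times without model replicate 3. The log2 difference of 2.61 (SE 1.17) was not called (limma adjusted p = 0.137). The treatment mean of 22.9 ± 11.1 FPKM (SD, n = 4) gave a log2 difference of 2.98 from control (SE 1.17, limma adjusted p = 0.13), called without treatment replicate 3 of day 15 (0.048). The model-control difference passed the threshold with a spread from its own 8 libraries (limma adjusted p = 0.0379) and with array weights (limma adjusted p = 0.00597).

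At day 15 the Il1b values of all 3 groups overlapped. Control libraries held 16.7, 4.64, 4.17 and 35.8 FPKM, model libraries 39.7, 11.0, 515 and 34.8 FPKM, and treatment libraries 59.9, 189, 1.85 and 167 FPKM. The highest treatment library held 102 times the level of the lowest, and model replicate 3 was far above every other library. Group means were 15.3 ± 14.8 FPKM in control and 104 ± 88.5 in treatment (SD, n = 4), and none of the day 15 differences of Il1b had an unadjusted p under 0.05. Il1a, the form that is active without cleavage and is stored in keratinocytes, moved in a much narrower range. Its libraries held 3.47 to 8.09 FPKM at day 10 over all 3 groups. At day 15 they held 5.46 to 9.18 FPKM in control, 5.73 to 9.05 in treatment and 3.33 to 5.61 in model replicates 1, 2 and 4, with 28.5 FPKM in model replicate 3. No comparison of Il1a between 2 groups had an unadjusted p under 0.05.

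**Figure D2:**
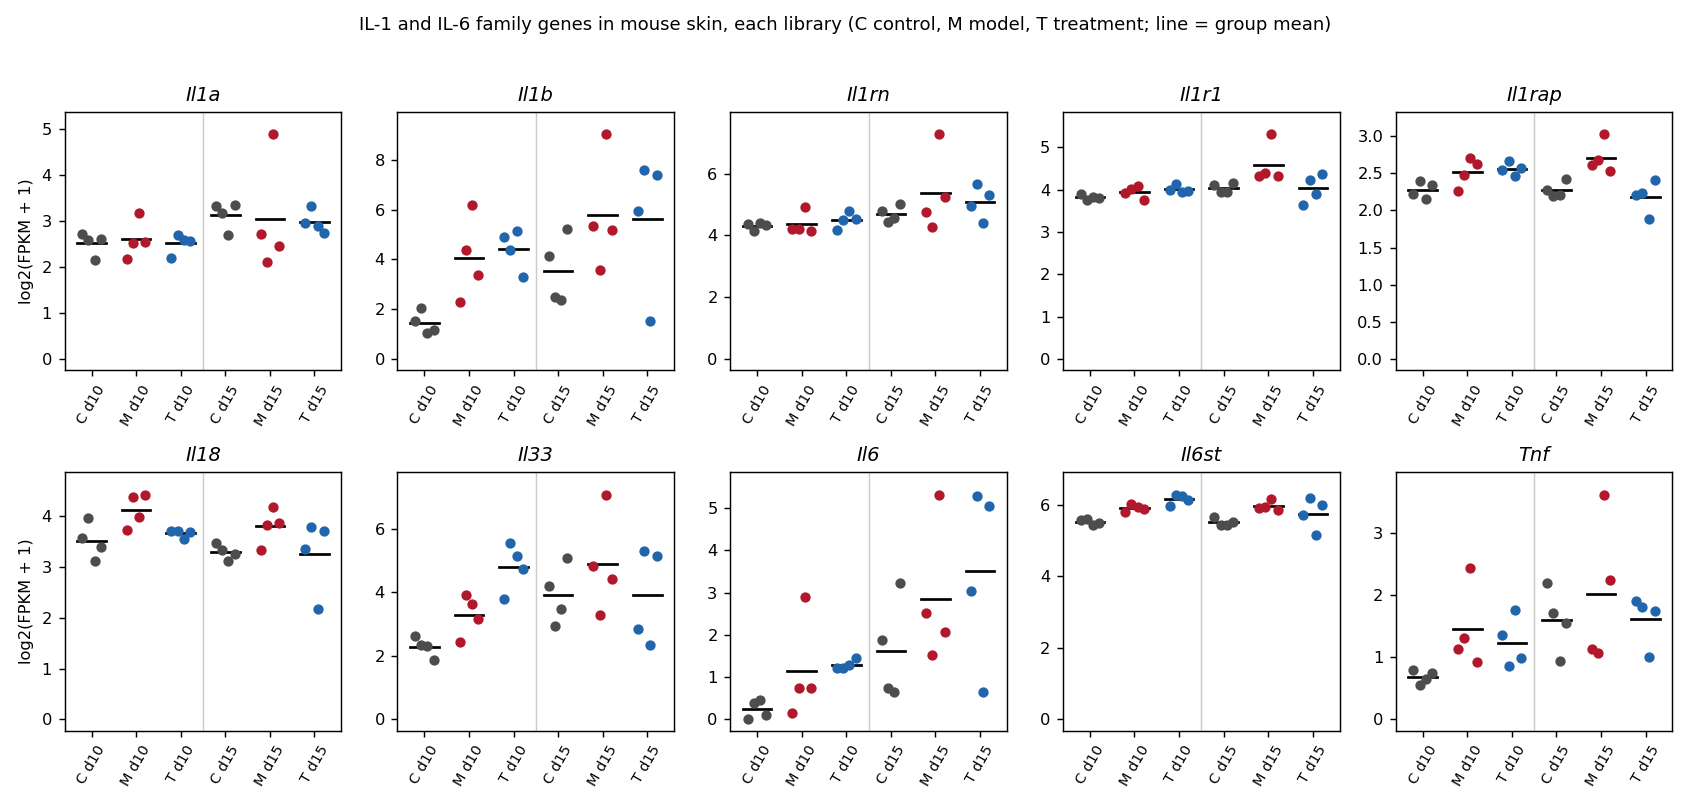
Level of each of the 10 genes as log2(FPKM + 1) (y axis) in every library (points) of the 6 groups (x axis: C control, M model, T treatment, at day 10 and day 15), with lines at the group means of the log2 values. Il1b and Il6 span several log2 units within groups of day 15, where model replicate 3 (515 FPKM of Il1b) is highest and treatment replicate 3 (1.85 FPKM) lowest, while Il6st and Il1rap stay within narrow bands.

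Il6, an inducer of the acute-phase response, was at the edge of detection in control skin of day 10. Its replicates were listed at 0, 0.302, 0.374 and 0.0699 FPKM, from 0, 13, 16 and 3 recovered reads. Model libraries of day 10 held 0.113, 0.675, 6.47 and 0.663 FPKM (5, 31, 281 and 29 reads), and treatment libraries 1.31, 1.32, 1.45 and 1.75 FPKM (61, 59, 68 and 81 reads). All 4 treatment libraries were above all controls and close to each other, and model replicate 3 was the highest of the day. The treatment-control difference of day 10 was not called (limma adjusted p = 0.429), and that comparison crosses the kidney-marker divide. Day 15 levels were higher and wider, with 2.67, 0.684, 0.574 and 8.34 FPKM in control, 4.69, 1.89, 38.8 and 3.20 FPKM in model and 7.21, 37.8, 0.568 and 32.2 FPKM in treatment libraries. The treatment mean of 19.5 ± 18.3 FPKM was 6.34 times the control mean of 3.07 ± 3.65 (SD, n = 4), or 14.9 times without control replicate 4. The log2 difference of 1.88 (SE 0.87) was not called (limma adjusted p = 0.239). Without treatment replicate 3 of day 15 it was 2.83 and called (limma adjusted p = 0.0155). Without the 4 treatment libraries low in Y-linked transcripts, which leaves that replicate as the only treatment library of day 15, it was -0.98.

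Tnf, a cytokine that activates NF-kB through its own receptors, was low in every group, with 29 to 757 recovered reads per library. Control libraries of day 10 held 0.733, 0.466, 0.564 and 0.675 FPKM. Model libraries held 1.20, 1.47, 4.40 and 0.884 FPKM, and treatment libraries 1.55, 0.803, 2.37 and 0.970 FPKM, all above the controls. At day 15 the ranges were 0.920 to 3.54 FPKM in control, 1.09 to 11.2 in model and 0.996 to 2.74 in treatment, and they overlapped. Tnf was not called in any comparison. Its day 15 controls lay above its day 10 controls (log2 difference 0.91, SE 0.43, limma adjusted p = 0.2).

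Il33, an alarmin held in the nuclei of epithelial and stromal cells and sensed by the receptor Il1rl1, held 5.18, 4.09, 3.93 and 2.64 FPKM in control skin of day 10. Model libraries of day 10 held 4.42, 14.2, 11.3 and 7.91 FPKM and overlapped the controls. Treatment libraries held 12.8, 45.7, 34.2 and 25.4 FPKM, all above the controls. The treatment mean of 29.5 ± 13.9 FPKM was 7.46 times the control mean of 3.96 ± 1.04 (SD, n = 4), and the log2 difference of 2.51 (SE 0.70) fell just short of the threshold (limma adjusted p = 0.0523). It was called without treatment replicate 1 of day 10 (2.85, limma adjusted p = 0.0459) and, at 2.51, without model replicate 1 of day 10 or without model or treatment replicate 2 or 3 of day 15 (limma adjusted p between 0.0239 and 0.0495). Against the model mean of 9.46 ± 4.23 FPKM (SD, n = 4) the treatment difference was 1.51 (SE 0.70, limma adjusted p = 0.46). Both comparisons cross the kidney-marker divide. The receptor gene Il1rl1 was called higher by limma in treatment against control at day 10, from a mean of 1.17 to 16.3 FPKM (log2 difference 2.59, SE 0.55, limma adjusted p = 0.0157). Voom did not call it. At day 15 Il33 ranged from 6.66 to 32.8 FPKM in control, 8.79 to 133 in model and 4.10 to 38.6 in treatment libraries, and all 3 groups overlapped.

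Il18, which like interleukin-1 beta is released after caspase-1 cleavage, held 10.9, 14.6, 7.66 and 9.43 FPKM in control and 12.2, 19.6, 14.8 and 20.4 FPKM in model libraries of day 10. The groups overlapped at control replicate 2 and model replicate 1, and the log2 difference of 0.61 (SE 0.26) was not called (limma adjusted p = 0.123). It was called without treatment replicate 3 of day 15 (0.0246) and with array weights (0.75, limma adjusted p = 0.00118). Treatment libraries of day 10 lay within 10.7 to 12.1 FPKM. At day 15 the means were 8.82 ± 1.02 FPKM in control, 13.2 ± 3.27 in model and 9.40 ± 4.22 in treatment (SD, n = 4), with overlapping libraries. Il1rn, the antagonist that blocks Il1r1, ranged from 16.6 to 20.0 FPKM in control, 16.6 to 29.1 in model and 17.2 to 26.6 in treatment libraries of day 10. Its day 15 ranges were 20.5 to 31.7, 18.2 to 153 and 20.3 to 50.0 FPKM, and the model range without replicate 3 ended at 37.3 FPKM. Neither gene was called between treatments on either day.

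Between days, 0 of the 10 genes were called in control skin by limma or voom (2 with an unadjusted p under 0.05, Tnf and Il33, the latter at 1.63 with an SE of 0.70 and a limma adjusted p of 0.163), beside 1.48% of tested genes called higher and 3.33% lower at day 15. In model skin Il1r1 was higher at day 15 (log2 difference 0.64, SE 0.17, limma adjusted p = 0.0273), beside 1.62% of tested genes called higher and 6.85% lower. Il1rn (1.02, SE 0.41, limma adjusted p = 0.115) and Il33 (1.61, SE 0.70, limma adjusted p = 0.146) had an unadjusted p under 0.05 there and were not called. Without model replicate 3 of day 15 these differences were 0.397 for Il1rn and 0.894 for Il33. The Il1r1 call was lost without model replicate 3 of day 15 (0.40, limma adjusted p = 0.108) and without model replicate 2 (0.66, 0.0547) or 4 (0.58, 0.0857) of day 10. In treatment skin Il1rap was lower at day 15 (log2 difference -0.38, SE 0.12, limma adjusted p = 0.0424), beside 2.11% of tested genes called higher and 7.53% lower. Il6 (2.21, SE 0.87, limma adjusted p = 0.111) and Il6st (-0.40, SE 0.14, limma adjusted p = 0.0777) had an unadjusted p under 0.05 and were not called. For Il1rap, all 4 treatment libraries of day 15 were below all 4 of day 10. Its call was lost without treatment replicates 1, 2 or 4 of day 10 or 1, 2 or 3 of day 15 (between -0.28 and -0.40, limma adjusted p between 0.0591 and 0.123). It was also lost without control replicate 1 or 4 or model replicate 2 of day 10 or control replicate 1, 2 or 3 of day 15, at an adjusted p of at most 0.0513. Only the treatment comparison lies on 1 side of the kidney-marker divide.

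Marker lists of other cell types were measured in the same libraries, and their counts are read beside the shares of all tested genes called. At day 10 these shares were 6.79% higher and 7.04% lower in model against control, and 2.2% and 1.04% in treatment against control. At day 15 they were 4.23% and 6.56% in model against control and 10.3% and 9.32% in treatment against model. The summed level of 11 neutrophil markers was 25.5 to 35.1 FPKM in control, 83.8 to 273 in model and 133 to 206 in treatment libraries of day 10, and Ly6g and Ngp were listed at 0 in all 4 controls. Limma called 2 of 8 tested neutrophil markers higher in model than control skin at day 10, and voom called 0. It called 1 of 8 higher in model than control skin at day 15, where 7 had an unadjusted p under 0.05. In treatment against control at day 10 it called 1 of 8 higher, and 5 had an unadjusted p under 0.05. Voom called 0 in both. At day 15 the sums were 49.8 to 288 FPKM in control, 98.2 to 304 in model replicates 1, 2 and 4, 3080 in model replicate 3 and 48.4 to 454 in treatment libraries. Treatment replicate 3 was the lowest library of day 15 for Il1b, Il6, Il33, Il18, Il1rap and Il6st. It also had the lowest neutrophil sum of that day, 48.4 FPKM, close to control replicates 3 (49.8) and 2 (50.9). Its sums of monocyte and macrophage (755 FPKM), fibroblast (2740), T cell (36.4) and endothelial (56.9) markers were the lowest of day 15 as well. The same held for its Langerhans and dendritic cell markers (16.4 FPKM). Of the 11 monocyte and macrophage markers, 9 were called higher in model than control skin at day 10, 6 in treatment than control skin at day 10 and 2 in model than control skin at day 15, and 2 were called lower in treatment than model skin at day 15. Their sums at day 15 were 1060 to 2130 FPKM in control, 2120 to 4540 in model and 755 to 3100 in treatment libraries.

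Fibroblast markers summed to 4070 to 6230 FPKM in control, 7070 to 10800 in model and 7900 to 9420 in treatment libraries of day 10. At that day 2 of 6 were called higher in model than control skin, and 0 in treatment against control. Their sums at day 15 were 4720 to 5790 FPKM in control, 7360 to 14000 in model and 2740 to 9220 in treatment libraries. There, 2 of 6 were called higher in model than control skin and 2 of 6 lower in treatment than model skin. Keratinocyte markers summed to 2000 to 2190, 1030 to 1830 and 1420 to 2110 FPKM in the same groups, and 4 of 9 were called lower in model than control skin. No keratinocyte, fibroblast, endothelial or mast cell marker was listed at 0 throughout any group. Lists of T cell (5 tested), adipocyte (5) and skeletal muscle (5) markers had 0 called by limma or voom in any comparison. At an unadjusted p under 0.05 they had at most 1, 1 and 2 genes in any comparison. Among 4 tested Langerhans and dendritic cell markers 1 was called, lower in treatment than model skin at day 15. Of 6 endothelial markers 2 were called higher in model than control skin at day 10 and 1 at day 15. Of 7 mast cell markers 1 was called lower in model than control skin at day 10 and 1 lower in treatment than model skin at day 15. The list as a whole was higher in model than control skin, with median log2 differences of 0.36 at day 10 and 0.46 at day 15. Its median sum was 108 FPKM in control and 176 in model at day 10, and 91.1 and 134 at day 15. None of the 7 was called higher, and 4 had an unadjusted p under 0.05 at day 15. The part of these markers in the differences of Il1b, Il6, Il1r1, Il1rap and Il6st was not tested.

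**Figure D3:**
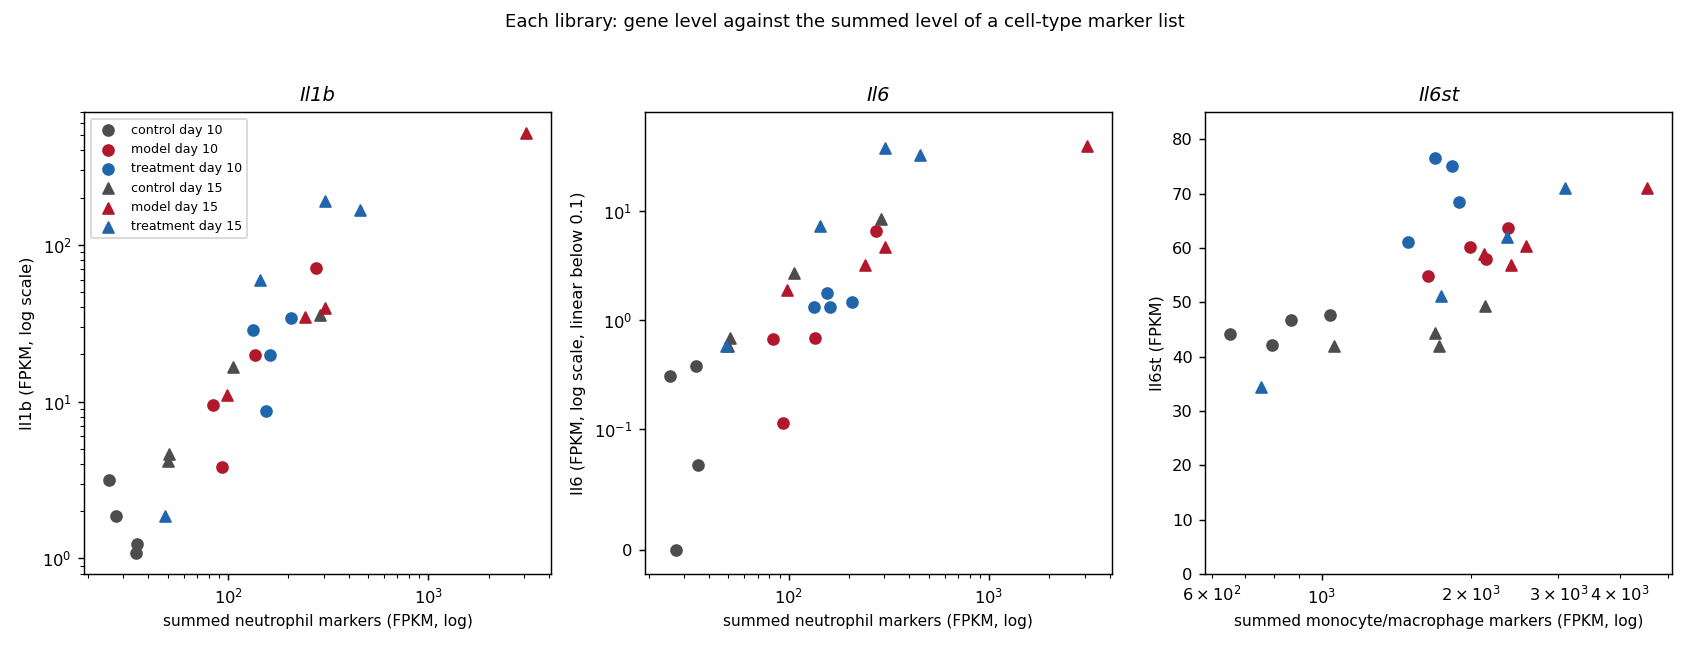
FPKM of Il1b and Il6 (y axes, log scales, linear below 0.1 FPKM for Il6) against the summed FPKM of neutrophil markers, and FPKM of Il6st (y axis from 0) against the summed FPKM of monocyte and macrophage markers (x axes, log scale), with 1 point a library. The 4 control libraries of day 10 lie at the low end of the neutrophil axis (25.5 to 35.1 FPKM) and model replicate 3 of day 15 alone at its high end (3080 FPKM).

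Around the 10 genes, 105 further genes of 10 pathway lists were tested (other ligands, receptors, processing, signalling and target genes). The lists were written with earlier results of these data known. Their shares, here and below, are therefore a description and no test of the lists against all genes. In model against control, 14 of the 105 rose and 0 fell at day 10, and 14 rose and 0 fell at day 15, with medians of 0.33 and 0.49. This is 13.3% higher and 0.0% lower at either day, where all tested genes had 6.79% higher and 7.04% lower at day 10, and 4.23% and 6.56% at day 15. STAT3 and acute-phase target genes held 6 of the 14 at day 10: Saa3 (mean 4.98 to 319 FPKM, log2 difference 5.34), Saa1 (2.42), Saa2 (2.36), Lbp (1.40), Hp (1.27) and Cebpd (0.98), with limma adjusted p between 0.00363 and 0.0325. The serum amyloid A genes encode acute-phase proteins and are near-identical copies (Saa1 and Saa2), so reads could be split between them. Among IL-6 family receptors Lifr, which pairs with gp130 for leukemia inhibitory factor (4.58 to 8.24 FPKM), and Il6ra, the interleukin-6 binding chain (6.67 to 11.2 FPKM), rose at day 10, as did the kinase Jak1 (28.8 to 40.8 FPKM). The decoy receptor Il1r2 (18.7 to 32.5 FPKM), Casp4 (4.40 to 10.5 FPKM) and Nlrc4 (log2 difference 0.44) of the interleukin-1 processing machinery, Ripk1 (3.01 to 4.04 FPKM) and the ligand subunit Ebi3 (0.980 to 2.76 FPKM) completed the 14. None of 21 genes of the signalling chain from MyD88 to NF-kB and none of 18 NF-kB target genes was called at day 10 by limma or voom, with 5 of each list at an unadjusted p under 0.05. The median log2 difference was 0.06 for the signalling chain, 0.85 for the NF-kB targets and 0.88 for the STAT3 and acute-phase list. At day 15 these medians were 0.08, 0.9 and 0.91. The count of 14 pathway genes at day 10 became 5 to 7 without control replicate 1, 3 or 4 or model replicate 2, 3 or 4 of day 10. It became 23 without model or treatment replicate 3 of day 15. All tested genes called ranged from 536 to 2498 with each library left out in turn, against 1803.

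At day 15 the genes higher in model skin were Saa1 (log2 difference 2.38), Saa2 (2.39), Steap4 (0.90) and Cebpd (0.79) among acute-phase targets, Lifr (0.54), Jak1 (0.48) and Tyk2 (0.26) of gp130 signalling, and Il1r2 (0.85), Nlrc4 (0.61), Casp8 (0.54) and the interleukin-36 ligand Il1f6 (1.13) of the IL-1 family. Birc3 (0.87) and Adam17 (0.39), the sheddase that frees TNF from the membrane, and the adhesion molecule Vcam1 (1.16) also rose. Limma adjusted p for these 14 lay between 0.0102 and 0.0495. The count of 14 pathway genes at day 15 became 2 to 4 without control replicate 2, 3 or 4 or model replicate 3 of day 15. It was 8 when model replicate 4 of day 15 was left out, 25 when model replicate 1 was and 26 when treatment replicate 3 was. It became 7 to 9 without control replicate 1 or 4, model replicate 2, 3 or 4 or any treatment library of day 10. All tested genes called ranged from 363 to 2374 with each library left out in turn, against 1408.

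In treatment against model skin, limma and voom called 0 of the 105 genes at day 10 (8 with an unadjusted p under 0.05), and at day 15 14 fell and 2 rose, with a median of -0.28. The 13.3% lower and 1.9% higher stand beside 9.32% and 10.3% of all tested genes. The interleukin-1 processing list held 5 of 9 tested genes that fell: Casp1, the protease that matures interleukin-1 beta and interleukin-18 (38.6 to 20.6 FPKM, log2 difference -0.86, limma adjusted p = 0.00225), Casp4 (-1.49), Casp8 (-0.59), Aim2 (-0.46) and Nlrc4 (-0.43). Lifr (9.14 to 4.96 FPKM, -0.76, limma adjusted p = 0.000945), Il6ra (-0.53) and Il31ra (-0.55) fell among IL-6 family receptors, and Cntfr rose (0.35). Il1r2 (-0.86) and the interleukin-36 receptor Il1rl2 (-0.45) fell among IL-1 family receptors. Stat3 (-0.47), Tyk2 (-0.21), Chuk (-0.37) and Birc2 (-0.37) also fell, and Junb rose (0.68). Genes of the NF-kB target list were not called in either direction (0 of 18 by limma and voom, also 0 at an unadjusted p under 0.05), with a list median of -0.21. The count of 16 pathway genes called at day 15 became 9 or 10 when model replicate 3 or 4 was left out and 7 when treatment replicate 1 was, all of day 15. At day 10, 1 of the 105 was called without treatment replicate 1 of day 10 or without model replicate 2 or treatment replicate 3 of day 15. With each library left out in turn, all tested genes called ranged from 1221 to 2947 at day 15, against 2563. At day 10 they ranged from 14 to 82, against 25.

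**Figure D4:**
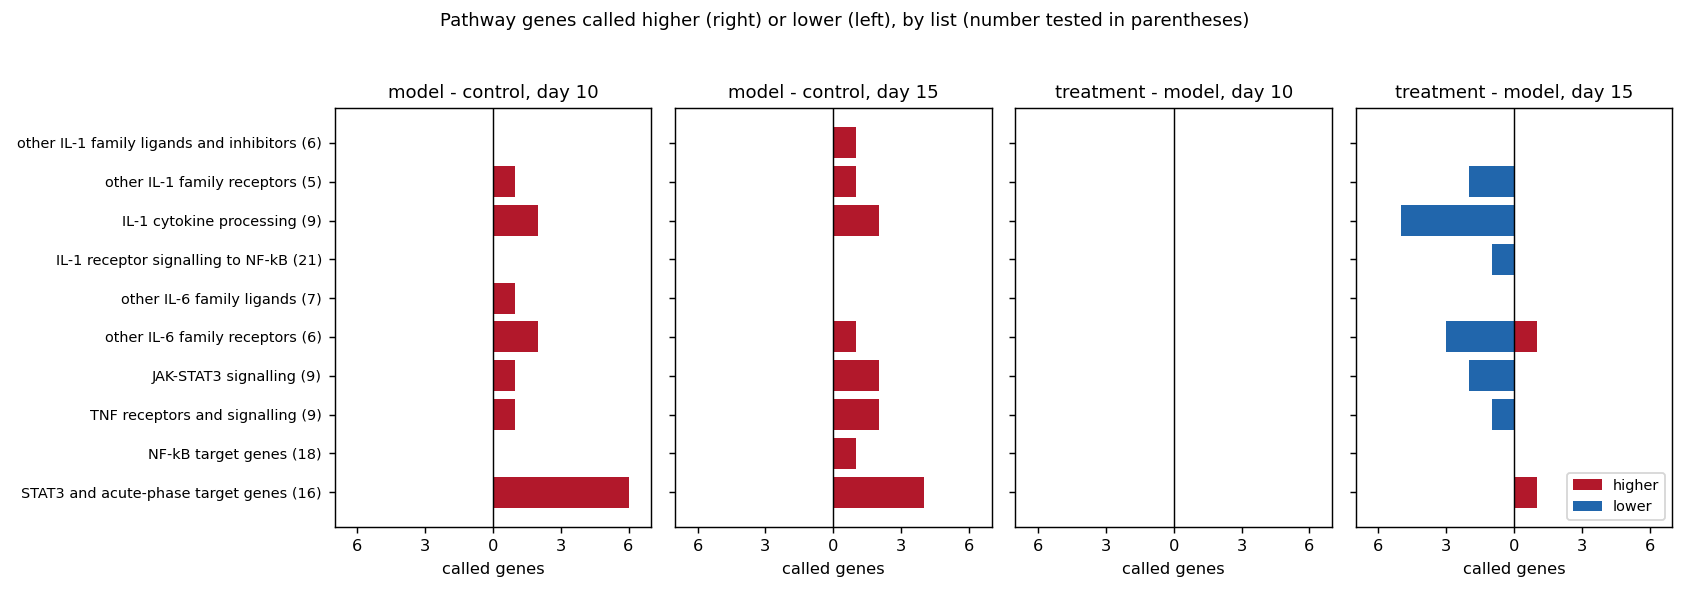
Number of genes called higher (bars to the right, red) or lower (bars to the left, blue) by limma in each of 10 pathway lists (y axis, genes tested in parentheses) for the model-control and treatment-model differences of both days. The STAT3 and acute-phase list has the longest bar in model against control (6 at day 10, 4 at day 15), and the interleukin-1 processing list in treatment against model at day 15 (5 lower).

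In treatment against control at day 10, 9 of the 105 genes (8.57%) rose and 0 fell, beside 2.2% and 1.04% of all tested genes. The 9 were Saa3 (log2 difference 5.34), Saa2 (3.20), Saa1 (3.09), Hp (1.03), Mt2 (0.87), Il1rl1 (2.59), Il1rl2 (0.41), Jak1 (0.61) and Tnfrsf1a (0.43). Voom called 4 of the 105 in this comparison, without Il1rl1 and Il1rl2. The 9 became 2 to 4 without control replicate 1, 3 or 4 or treatment replicate 2 or 3 of day 10. They became 19 without model replicate 3 of day 15 and 20 without treatment replicate 3 of day 15. All tested genes called ranged from 83 to 1287 with each library left out in turn, against 423. At day 15 limma and voom called 0 of the 105 between treatment and control (11 with an unadjusted p under 0.05). Limma called 18 without treatment replicate 3 of day 15. With each library left out in turn, all tested genes called in that comparison ranged from 0 to 2665, against 41. Between days, 3 pathway genes (2.86%) rose and 2 (1.9%) fell in control skin, beside 1.48% and 3.33% of all tested genes. These were Tnfaip6 (2.60), Saa3 (5.55) and Casp4 (1.30) against Il1f8 (-1.16) and Tab1 (-0.42). In model skin 11 (10.5%) rose and 3 (2.86%) fell, beside 1.62% and 6.85% of all tested genes. Among those that rose were Tnfaip6 (2.10), Il18bp, which binds and blocks interleukin-18 (1.17), Il4ra (1.16), Casp4 (1.14), Steap4 (0.85), Pim1 (0.73), Myd88 (0.64), Sod2 (0.59), Stat3 (0.54) and Cebpb (0.53). The 3 that fell were Il1f8 (-1.26), Il1f5 (-0.73) and Pias3 (-0.35). In treatment skin 1 (0.952%) rose and 7 (6.67%) fell, beside 2.11% and 7.53% of all tested genes. Junb rose (0.99), and Il1rl1 (-2.24), Il1f8 (-1.86), Il1f6 (-1.25), Il31ra (-0.86), Ccl20 (-0.61), Il1f5 (-0.57) and Il1rl2 (-0.54) fell. Il1f5, Il1f6 and Il1f8 are the table's names for interleukin-36 receptor antagonist, interleukin-36 alpha and interleukin-36 beta. The counts of pathway genes called between days moved by over 1.5 times without single libraries as well. In control skin the 5 became 2 or 3 without control replicate 1 or 2 of day 10 or 1, 2 or 4 of day 15, and 8, 20 and 13 without model replicate 2, model replicate 3 and treatment replicate 3 of day 15. In model skin the 14 became 0 without model replicate 3 of day 15, 1 to 4 without any model library of day 10 and 25 without model replicate 2 of day 15. The same 14 became 9 without control replicate 1 or treatment replicate 2 of day 10, or control replicate 2 or model replicate 4 of day 15. In treatment skin the 8 became 4 or 5 without treatment replicate 2 or 4 of day 10 or 1 of day 15. They became 16 without model replicate 3 of day 15 and 24 without treatment replicate 3 of day 15. All tested genes called between days moved as well with each library left out in turn. They ranged from 99 to 1166 in control skin (against 627), 146 to 1589 in model (1104) and 425 to 2531 in treatment (1257). For the changes of effect between days limma and voom called 0 of the 105, with 3 at an unadjusted p under 0.05 for the model-control difference and 16 for the treatment-model difference. Limma called 1 to 3 for the latter without control replicate 4 or treatment replicate 1 of day 10, or control replicate 2 or model replicate 1 of day 15.

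The tested genes whose log2(FPKM + 1) followed each of the 10 genes most closely are given as a description over 24 libraries, which share treatment, day and the libraries that stand apart. Il1b was followed most closely by Cd14 (Pearson r 0.967), Cxcl2 (0.964) and Nlrp3 (0.961), and Il6 by Rnd1 (0.958), Cxcl1 (0.957) and Zc3h12a (0.957). Without model replicate 3 of day 15 these 6 values were between 0.946 and 0.961. Il33 was followed by Timp1 (0.947), Clec4d (0.937) and Msn (0.931), and Il6st by Rab3il1 (0.93), Dab2 (0.928) and Tgfbr2 (0.927). For Il18 they were Leprot (0.921), Chpf2 (0.905) and Mmp14 (0.90), and for Il1rap Stat5a (0.90), Il1f9 (0.886) and Tram1 (0.876). Il1rn was followed by Rab20 (0.954), Sdc4 (0.953) and Tarm1 (0.939), Il1r1 by Crem (0.959), Picalm (0.938) and Osmr (0.924), and Tnf by Stx11 (0.913), Clec4e (0.904) and Acod1 (0.902). Il1a had the loosest followers, Olr1 (0.87), Tes (0.859) and Bhlhe40 (0.855), and without model replicate 3 these were 0.789, 0.666 and 0.733. Among the 10 genes themselves, Il1b and Il6 gave the highest r of any pair (0.92, and 0.89 without that library), while Il1a and Il18 gave the lowest over all 24 libraries (0.07). Without that library Il1a and Il1rap gave the lowest (-0.23), next to Il1a and Il18 (-0.22). Il1a and Il1r1 went from 0.64 to 0.08 when that library was left out.

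Some reads may belong to overlapping genes, since use of strand in the counting is not given in the sources used here. In the GENCODE M21 annotation Il18 overlaps Bco2 (0.267 to 2.07 FPKM) and Tex12 (0 to 0.255 FPKM) on the opposite strand. Il1a, Il1b and Il1rap each overlap an antisense gene, and Il1r1 a gene model on its own strand, none of which is in the table.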

How the data were processed

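Poly(A) libraries of 24 mouse skin samples were analysed, 4 in each of 6 groups named by the sample titles. Per the labels' protocols, RNA was extracted with TRIzol and libraries were made with a VAHTS Universal V6 kit. Per the submitters' processing notes, the tools were fastp, HISAT2 and HTSeq with build GRCm39, and versions, annotation and use of strand are not given in the sources used here. The authors deposited FPKM per gene. Whole reads were recovered for 18715 of 18715 genes above 0 (100.0%, tolerance 0.01 read for low and 0.05 for high genes). Precision was taken from the spread between mice.

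Values were fitted as log2(FPKM + 1) with limma 3.58.1 in R 4.3.3 (1 mean a group, all 24 libraries, eBayes with trend and robust), for genes with 4 or more libraries reaching an FPKM of 1 (13039 tested, 5853 removed). Tests were two-sided with Benjamini-Hochberg adjustment over all tested genes, and a gene was called at an adjusted p under 0.05. A pseudocount of 1 understates differences of low genes. Log2 differences of the 10 genes are printed where the unadjusted p is under 0.05. In pathway lists every called gene is named except 1 that is not reported here, and the 3 most correlated genes are named for each of the 10. Synonyms matched 4 listed genes (Il1f5, Il1f6, Il1f8, Il1f9). The genes, lists and tests were chosen with earlier results of these data known. Alternatives were another pseudocount (0.1), all genes kept, only genes with a mean FPKM of 5 or more, 3 scalings, a spread from only the groups compared, array weights, a replicate block, voom on recovered reads and leaving out each library. A fit without the 4 treatment libraries under 80% of the median Y-linked level was chosen after seeing the data.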

Additional observations from a re-analysis of the deposited data

Results flagged for a closer look

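In 11 of 60 sets of 4 libraries (10 genes in 6 groups), the highest or lowest library lay far from the other 3, with a gap to its neighbour, as a share of the group's range, above Dixon's critical value for 4 libraries. Chance gives this in about 1 in 20 sets of normally distributed values, and the 10 genes are not independent. Gaps were taken on FPKM, where a high library lies further from the rest than on the log2 scale of the fits. Chance may thus give more than 1 in 20 here, and the log2 scale was not used to flag the 11 sets. Model replicate 3 of day 15 was the highest library in 6 of them: the gap was 0.909 of the range for Il1a (28.5 FPKM against at most 5.61 in the other 3), 0.943 for Il1b (515 against at most 39.7), 0.859 for Il1rn (153 against at most 37.3), 0.942 for Il1r1 (38.4 against at most 20.1), 0.852 for Il33 (133 against at most 27.2) and 0.924 for Il6 (38.8 against at most 4.69). Model replicate 3 of day 10 was the highest in 3, with 0.921 for Il1rn (29.1 FPKM against at most 17.6), 0.912 for Il6 (6.47 against at most 0.675) and 0.833 for Tnf (4.40 against at most 1.47). Replicate numbers of different days belong to different mice. In treatment skin of day 10 the gap was 0.853 for Il1r1, where replicate 2 was highest (16.6 FPKM against 14.5 to 14.8), and 0.874 for Il18, where replicate 3 was lowest (10.7 FPKM against 11.9 to 12.1), both within narrow ranges.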

How the results depend on the processing

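Directions were followed for 27 tests of the 10 genes, those with an unadjusted p under 0.05 in the fit reported. These differences were chosen for being large against their SE, so a kept direction says little about steadiness. The other tests of the 10 genes are not covered. Of 938 log2 differences (up to 35 alternatives a test), 936 kept their direction and 2 turned. Both turned without the 4 libraries low in Y-linked transcripts. There, Il6 was -0.98 in treatment against control at day 15 and -0.65 in treatment at day 15 against day 10. That setting left 1 treatment library at day 15, assumed to vary like the other groups.

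Counts of the 10 genes called moved more, and the cause was not tested. Counts of all tested genes called moved under the same alternatives. Their ranges are given below for each comparison, not for each setting. The counts here and in the next paragraph are therefore not read as results about the 10 genes. With only the groups compared setting the spread they were 2 in model against control at day 10, 1 at day 15, 0 in treatment against model at day 15, 5 in treatment against control at day 10, and 3, 0 and 0 between days in control, model and treatment. With array weights they were 4, 6, 3, 0, 4 and 3 in model against control, treatment against model and treatment against control (day 10 then day 15 of each), and 3 between days in each treatment. Without a filter 1 was called in model against control at day 15 and 0 between days in treatment. At a mean FPKM of at least 5, 1 was called in treatment against model at day 15 and 0 between days in treatment. Treatment against control at day 10 had 2 at a pseudocount of 0.1 and 2 with quantile normalization. Between days in treatment there were 0 with median-of-ratios scaling, 0 with quantile normalization and 2 with a common total. Without the low Y-linked libraries there were 2 in model against control at day 10, 4 in treatment against model at day 15, 3 between days in treatment and 2 for the change of the treatment-model difference.

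Leaving out each library gave 0 to 2 in model against control at day 10, 0 to 3 at day 15, 1 to 2 in treatment against model at day 15, 0 to 3 in treatment against control at day 10 and 0 to 3 at day 15, and 0 to 2 between days in model and in treatment. The replicate block gave 0 in model against control at day 15, 1 in treatment against model at day 15, 0 in treatment against control at day 10 and 0 between days in treatment. Residuals of same-numbered libraries of the same day correlated between -0.63 and 0.51, so the numbers were not taken to pair mice within a day. Same-numbered libraries of different days, which belong to different mice, were not compared in this way.

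All tested genes called ranged over the alternatives from 536 to 4927 (1803 in the fit reported) in model against control at day 10, 363 to 4592 (1408) at day 15, 10 to 1502 (25) and 0 to 3845 (2563) in treatment against model, and 83 to 4485 (423) and 0 to 2665 (41) in treatment against control. Between days they ranged from 99 to 3683 (627) in control, 8 to 3347 (1104) in model and 425 to 2609 (1257) in treatment, and for both changes of effect from 0 to 66 (0) and 3 to 596 (13). Of the 105 pathway genes, 5 to 53 (14 reported) and 2 to 54 (14) were called in model against control, 0 to 8 (0) and 0 to 42 (16) in treatment against model, 2 to 56 (9) and 0 to 18 (0) in treatment against control, 2 to 51 (5), 0 to 38 (14) and 4 to 25 (8) between days, and 0 to 0 (0) and 0 to 7 (0) for the changes of effect. Voom called 9, 11, 0, 18, 4, 0, 2, 12, 8, 0 and 0 in that order, and the replicate block 6 and 3 in model against control and 4 in treatment against control at day 10. The planned fit without libraries under 0.1 of the median Y-linked level was not run, since no library was that low. Low reads limit Il6 (0 to 16 in day 10 controls).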
